A study of Mus musculus with 23 samples.

Results

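Cholesterol synthesis was followed through 8 genes chosen by name. Hmgcs1, Idi1 and Fdps encode enzymes of the mevalonate arm, Sqle, Lss and Dhcr7 encode enzymes of the sterol arm, and Srebf2 and Insig1 belong to the control of the pathway. Of these 8 genes, 7 were measured, through 15 probe sets that the array annotation assigns to that symbol alone, among 12393 genes with such a probe set and 22626 probe sets in all. Insig1 had none under this rule and was not analysed here. Each gene was read through its probe set with the highest mean log2 intensity over all 23 arrays.

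Cells build cholesterol from acetyl-CoA by way of mevalonate, isoprenoid diphosphates and squalene. The transcription factor SREBP2, the product of Srebf2, turns on most genes of the pathway when sterols in the endoplasmic reticulum run low. SCAP escorts it to the Golgi for cleavage, and INSIG proteins hold the SCAP complex back when sterols are plentiful. Dividing cells, activated T cells among them, need cholesterol and isoprenoids for new membrane and for prenylated proteins.

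Total RNA was hybridised to Affymetrix Mouse 430A 2.0 arrays in 6 groups. Ezh2-deficient mouse embryonic fibroblasts (MEFs) and Snf5 Ezh2-deficient MEFs had 3 arrays each, and each line was paired with 3 wild-type MEF arrays as its control. All MEFs came from E13.5 embryos, and the design text calls the inactivation conditional. The third comparison set purified CD8+ cells of Snf5-deficient lymphomas (5 arrays) against purified CD8+ T cells of wild-type mice (6 arrays), all at 10 to 15 weeks of age. Ezh2 is the methyltransferase of PRC2, a Polycomb complex that silences chromatin, while Snf5 (gene symbol Smarcb1) belongs to the SWI/SNF complex, which remodels nucleosomes. The study asked how Snf5 and Ezh2 oppose each other in the control of gene expression, and which programs change in Snf5-deficient tumours. The labels name no recombinase, driver or strain, and they do not say whether MEF arrays came from separate embryos.

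Values below are log2 RMA intensities unless stated otherwise. The targeted genes read low where the labels say so: Ezh2 lay between 5.63 and 5.81 in Ezh2-deficient MEFs and between 6.10 and 6.65 in Snf5 Ezh2-deficient MEFs, against 7.81 to 8.07 in wild-type MEFs. Smarcb1 lay between 6.56 and 6.83 in Snf5 Ezh2-deficient MEFs, where their controls had 9.08 to 9.25, and between 5.64 and 8.67 in the lymphomas against 10.38 to 11.48 in wild-type CD8+ cells. The 3 wild-type arrays paired with Snf5 Ezh2-deficient MEFs matched those paired with Ezh2-deficient MEFs array for array and were counted once: the SD between arrays of the same number was 0.0219 to 0.0241, against 0.137 to 0.152 for different numbers. In all 9 distinct MEF arrays were used, and both MEF comparisons shared their controls. Fibroblast markers were at a mean of 10.21 to 10.92 on all MEF arrays, where T cell markers were at 5.56 to 5.85. Among Ezh2-deficient arrays the Y-linked gene Eif2s3y, chosen after its values were seen, was at 8.24 on array 1, 3.65 on array 2 and 4.00 on array 3. It was at 8.02 to 8.25 on all wild-type MEF arrays and at 8.14 to 8.53 on the Snf5 Ezh2-deficient arrays. Xist was at 9.56 and 9.52 on Ezh2-deficient arrays 2 and 3, and at 6.19 to 6.45 on all other MEF arrays. T cell arrays also split by sex-linked genes: Eif2s3y was at 11.81 to 12.55 and Xist at 4.85 to 5.44 on lymphoma arrays 2, 3 and 4, while Xist was at 12.25 and 13.19 on the other lymphomas and at 12.85 to 13.51 on all 6 wild-type CD8 arrays, of which arrays 3 and 4 had Eif2s3y at 9.84 and 6.11. The part of these differences in the results was not tested. Wild-type CD8 arrays 1 and 6 stood apart: their 10 T cell markers averaged 10.51 and 10.10 against 12.02 to 12.24 on the other wild-type arrays, and their 11 myeloid markers averaged 12.35 and 12.31 against 6.64 to 8.30. Idi1, Hmgcs1 and Fdft1 are therefore also given without these 2 arrays.

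The promoters of 4 genes on which the results turn are shown, because SREBP2 acts with partner factors at short motifs near the start site. Sequences are those of RefSeq on GRCm38.p6, 250 bases before to 50 bases after the start, 5′ to 3′. Hmgcs1 lies at chr13:119690101-119690400, Idi1 at chr13:8885356-8885655, Lss at chr10:76531355-76531654 and the Dhcr7 window at chr7:143829964-143830263, all on the plus strand. Capitals mark the SREBP motif TCACNCCAC on either strand. They also mark the NF-Y box, which reads CCAAT. On the reverse strand that box appears as ATTGG.
Hmgcs1: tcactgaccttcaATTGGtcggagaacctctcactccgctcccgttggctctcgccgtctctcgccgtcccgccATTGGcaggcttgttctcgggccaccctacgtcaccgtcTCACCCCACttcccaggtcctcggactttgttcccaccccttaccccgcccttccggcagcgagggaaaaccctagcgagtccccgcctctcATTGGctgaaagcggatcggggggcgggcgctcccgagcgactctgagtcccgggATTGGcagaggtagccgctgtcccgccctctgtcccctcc
Idi1: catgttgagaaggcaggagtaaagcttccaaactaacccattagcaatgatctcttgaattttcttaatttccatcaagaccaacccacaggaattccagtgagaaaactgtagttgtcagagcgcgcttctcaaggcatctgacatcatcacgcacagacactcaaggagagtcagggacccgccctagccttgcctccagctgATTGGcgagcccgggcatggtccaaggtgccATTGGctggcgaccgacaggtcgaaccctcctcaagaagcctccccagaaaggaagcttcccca
Lss: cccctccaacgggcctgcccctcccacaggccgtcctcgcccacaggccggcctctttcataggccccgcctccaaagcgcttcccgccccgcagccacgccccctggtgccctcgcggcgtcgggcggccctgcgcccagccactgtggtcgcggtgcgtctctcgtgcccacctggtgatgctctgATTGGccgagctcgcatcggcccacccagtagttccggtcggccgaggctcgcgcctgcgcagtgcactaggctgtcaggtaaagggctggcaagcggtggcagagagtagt
Dhcr7: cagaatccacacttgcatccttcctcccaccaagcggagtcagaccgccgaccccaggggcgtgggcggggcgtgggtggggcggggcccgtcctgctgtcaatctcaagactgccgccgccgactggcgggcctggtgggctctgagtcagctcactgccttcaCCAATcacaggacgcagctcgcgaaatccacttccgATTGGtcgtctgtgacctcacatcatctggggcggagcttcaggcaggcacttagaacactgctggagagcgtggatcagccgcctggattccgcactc

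The SREBP motif was present in the Hmgcs1 window, where it begins at -137 from the start, and in no other of the 8 windows that the table holds for 6 of the 8 genes. Over all 32851 promoter windows it was found in 1.24%. The NF-Y box was present in 6 of those 8 windows, 1 for each of the 6 genes, and in 37.4% of all windows. Dhcr7 has 3 windows, and the printed window is the only one of them with an NF-Y box. E-boxes (CACGTG), which SREBPs can also bind, were found in the window of Insig1 and in another window of Dhcr7, and in 7.15% of all windows. The Sp1 box GGGCGG was present in every window of the 6 genes except that other Dhcr7 window, and in 35.7% of all windows. Among 12 other enzymes of the pathway with windows, 11 had an NF-Y box and 0 had the SREBP motif. These matches are letters in short windows, not binding sites. Sqle and Fdps have no window in the table.

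Ezh2-deficient MEFs had lower fitted levels than wild-type MEFs for all 7 measured genes, but none passed the test (limma, Benjamini-Hochberg adjusted p below 0.05). The largest differences were in Idi1 and Fdps, and Srebf2 was nearly level. The median log2 difference of the 7 genes was -0.35, against 0.00 over all genes. In this comparison 3.49% of all genes passed, 1.02% higher and 2.47% lower, and 0 of 7 passed here.

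Hmgcs1, which condenses acetyl units into HMG-CoA ahead of the rate-limiting reductase, read 11.30, 11.61 and 10.87 in Ezh2-deficient MEFs against 11.57, 11.62 and 11.63 in wild-type MEFs. Idi1, the isopentenyl diphosphate isomerase, read 10.19, 10.53 and 9.81 in Ezh2-deficient MEFs against 10.58, 10.64 and 10.67 in wild-type MEFs. Fdps, the farnesyl diphosphate synthase, read 11.49, 11.71 and 11.06 in Ezh2-deficient MEFs against 11.71, 11.93 and 11.96 in wild-type MEFs. In each of these genes array 3 was lowest and array 2 came closest to the wild-type arrays. The difference was -0.35 ± 0.16 for Hmgcs1 (SE, adjusted p = 0.212), -0.46 ± 0.14 for Idi1 (adjusted p = 0.101) and -0.45 ± 0.14 for Fdps (adjusted p = 0.1).

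In the sterol arm, Sqle, the squalene epoxidase and a second control point of the pathway, read 10.49, 10.62 and 10.27 in Ezh2-deficient MEFs against 10.70, 10.80 and 10.84 in wild-type MEFs. The groups did not overlap, and the difference of -0.32 ± 0.09 had an adjusted p of 0.0704. Lss, which cyclises squalene epoxide to lanosterol, differed by -0.31 ± 0.14 (adjusted p = 0.216). Dhcr7, which carries out a final reduction to cholesterol, differed by -0.36 ± 0.14 (adjusted p = 0.153). In Lss and Dhcr7 array 2 lay within the wild-type range. Srebf2 differed by -0.02 ± 0.07, with a 95% confidence interval of -0.17 to 0.13.

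The 3 Ezh2-deficient arrays lay in nearly the same order from gene to gene. Array 3 was the lowest and array 2 the highest in 7 of 7 genes, and in the 12 other enzymes array 3 was lowest in 12 and array 2 highest in 11. The mean of the 7 genes was 10.06, 10.31 and 9.74 on Ezh2-deficient arrays 1 to 3, against 10.29, 10.37 and 10.42 on the wild-type arrays. The fibroblast marker mean followed that order too, at 10.38, 10.88 and 10.21 on the Ezh2-deficient arrays, and its part in the result was not tested. Arrays 2 and 3, at opposite ends for cholesterol genes, were both low in Eif2s3y. The part of sex-linked differences in these values was not tested. Without Ezh2-deficient array 2, Sqle, Idi1, Fdps and Dhcr7 passed as lower, and 2 other enzymes with them. Without Ezh2-deficient array 3 none of the 7 genes passed. The difference was then -0.15 for Hmgcs1, -0.13 for Lss, -0.27 for both Idi1 and Fdps, -0.23 for both Sqle and Dhcr7, and 0.05 for Srebf2. The size of the MEF differences thus moved with single arrays in both directions, and the sign for Srebf2 turned.

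**Figure D1:**
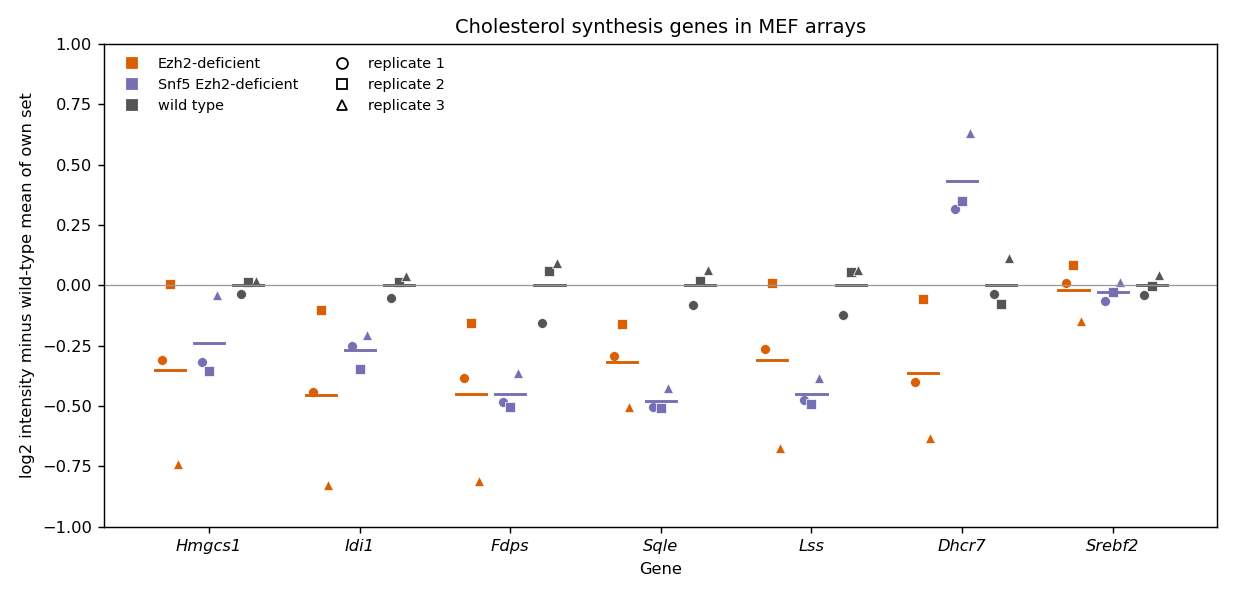
Log2 intensity of the 7 measured genes on each MEF array minus the wild-type mean of its own set, with Ezh2-deficient, Snf5 Ezh2-deficient and wild-type arrays side by side for each gene, symbols for the replicate and bars for group means (3 arrays each). Ezh2-deficient array 3 is lowest in every gene of its group, the Snf5 Ezh2-deficient arrays lie close together below the wild-type arrays for Sqle, Fdps and Lss, and only Dhcr7 lies above them.

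The rest of the pathway gave the same picture of lower values without calls. Of the other 12 measured enzymes, 11 were below 0 and 0 passed in either direction, with a median difference of -0.23. The smallest p among them belonged to Mvd, mevalonate diphosphate decarboxylase, at -0.42 ± 0.11 (adjusted p = 0.068). Among 6 genes of SREBP processing 0 passed. Srebf1, which encodes the sister factor SREBP1, differed by 0.13 (adjusted p = 0.229).

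Some neighbours of the pathway did pass in Ezh2-deficient MEFs. Stard4, a carrier that moves cholesterol between membranes, was 1.64-fold lower (adjusted p = 0.046), the only call among 7 genes of uptake and transport. Of 12 genes of fatty acid synthesis, which SREBP1 controls, 2 fell: Elovl6, a fatty acid elongase, by 0.48 on the log2 scale (adjusted p = 0.0128) and Fasn, fatty acid synthase, by 0.29 (adjusted p = 0.0494). Elovl6 passed in 13 of 14 alternative settings and was lost without wild-type array 2. Stard4 passed in 5, and was lost without Ezh2-deficient array 1 or 3 or wild-type array 2 or 3; Fasn passed in 4 and was lost without any of the 6 arrays. Mylip, which marks the LDL receptor for degradation, differed by -0.24 (adjusted p = 0.0745), and none of the 8 efflux genes passed. Proliferation markers were lower in the same cells: 14 of 19 fell, with a median of -0.61, led by Tk1 at -0.81, Mcm5 at -0.76, Kif20a at -0.72 and Mki67 at -0.68; these 4 did not pass without Ezh2-deficient array 1 or wild-type array 2 or 3. Their part in the cholesterol values was not tested. RNA was taken from bulk cultures, so a lower share of cells expressing a gene and less RNA per cell cannot be told apart.

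Snf5 Ezh2-deficient MEFs had calls in both directions among the 7 genes. Sqle, Fdps and Lss fell, Dhcr7 rose, and Hmgcs1, Idi1 and Srebf2 did not pass. Of the 7 genes, 3 were lower and 1 higher, where 27.5% of all genes passed, 14.3% lower and 13.2% higher. The 1 higher call was thus near the share over all genes. The median difference was -0.27, against 0.00 over all genes.

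Sqle read 10.20, 10.19 and 10.28 in Snf5 Ezh2-deficient MEFs and 10.62, 10.71 and 10.78 in their wild-type controls. It was 1.39-fold lower (-0.48 ± 0.09, adjusted p = 0.00227), all 3 mutant arrays lay below all controls, and the call held in all 14 alternative settings. Fdps read 11.29, 11.27 and 11.41 in the mutant against 11.64, 11.84 and 11.84 in the controls. Lss read 8.89, 8.87 and 8.98 in the mutant against 9.25, 9.47 and 9.38 in the controls. Both were 1.37-fold lower, without overlap, by -0.45 ± 0.14 each (adjusted p = 0.0383 for Fdps and 0.0382 for Lss). These 2 calls were less firm: Fdps passed in 6 of 14 alternative settings and Lss in 7. Lss was lost when any of the 6 arrays was left out, and Fdps when any but wild-type array 1 was. The other 2 Lss probe sets also fell, by 0.88 (adjusted p = 0.00396) and 0.25 (adjusted p = 0.0306).

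Dhcr7 ran the other way. It read 8.50, 8.53 and 8.82 in Snf5 Ezh2-deficient MEFs and 8.14, 8.09 and 8.33 in wild-type MEFs, so that every mutant array lay above every control. It was 1.35-fold higher (0.43 ± 0.14, adjusted p = 0.0413) and passed in 7 of 14 alternative settings, among the arrays left out in turn only without wild-type array 3. With each array centred on its median it had the same direction and did not pass.

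Hmgcs1 and Idi1, which act ahead of Fdps, did not pass. Hmgcs1 read 11.26, 11.22 and 11.54 in Snf5 Ezh2-deficient MEFs and 11.55, 11.59 and 11.59 in wild-type MEFs, a difference of -0.24 ± 0.16 (adjusted p = 0.32). Of its 4 probe sets, 1 passed, at -0.34 (adjusted p = 0.0382). Idi1 read 10.32, 10.23 and 10.37 in the mutant against 10.55, 10.59 and 10.58 in the controls, a difference of -0.27 ± 0.14 (adjusted p = 0.21). Both genes lay below the controls on every mutant array without passing, and with only the 6 arrays of its own set Idi1 did pass as lower (-0.27, adjusted p = 0.013). Srebf2 read 9.80, 9.84 and 9.88 in the mutant against 9.80, 9.91 and 9.89 in the controls, and its 95% confidence interval was -0.18 to 0.13. For Srebf2 the 2 groups overlapped.

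Among the other enzymes, 5 of 12 fell and 0 rose, with a median of -0.34. Cyp51, the lanosterol demethylase, read 9.15, 9.15 and 9.43 in Snf5 Ezh2-deficient MEFs and 9.91, 10.03 and 10.05 in wild-type MEFs. It was 1.69-fold lower (adjusted p = 0.00154). Nsdhl and Msmo1, which act together in removing methyl groups from the sterol ring, fell by 0.55 (adjusted p = 0.00598) and 0.53 (adjusted p = 0.0115). Fdft1, the squalene synthase at the branch to sterols, fell by 0.49 (adjusted p = 0.024). Ggps1, which makes the geranylgeranyl group for prenylation, was the fifth, at -0.41 (adjusted p = 0.0191). The calls for Cyp51 and Nsdhl held in all 14 alternative settings and that for Msmo1 in 13, lost without mutant array 2. Fdft1 passed in 9 and was lost without mutant array 1 or 2 or wild-type array 2 or 3. It was also lost with the mean of all its probe sets. With Fdps, Sqle and Lss, the lower genes covered each step between Fdps and Nsdhl apart from Tm7sf2, which was at 0.11 (adjusted p = 0.463).

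**Figure D2:**
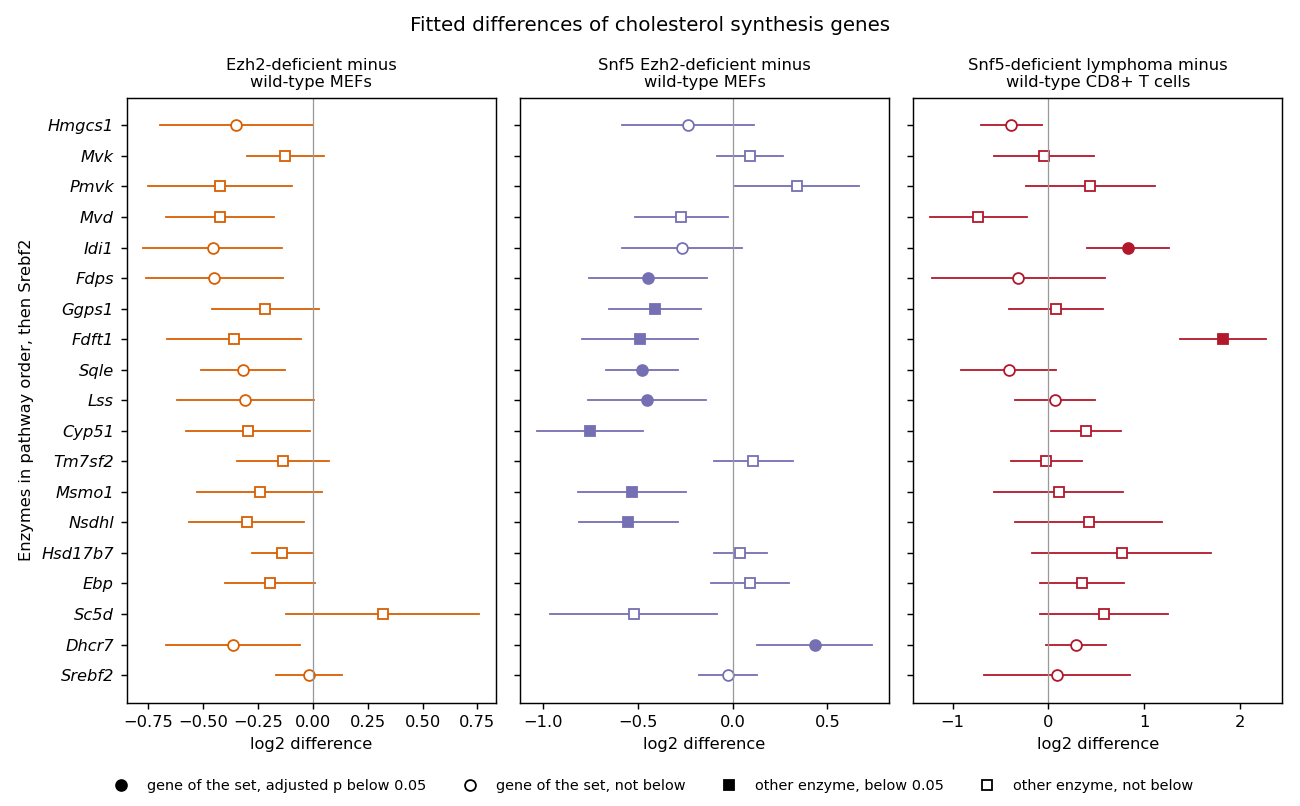
Fitted log2 difference of each measured cholesterol gene with its 95% confidence interval in Ezh2-deficient minus wild-type MEFs, Snf5 Ezh2-deficient minus wild-type MEFs (3 arrays a group) and Snf5-deficient lymphoma minus wild-type CD8+ T cells (5 and 6 arrays), with circles for the genes of the set, squares for other enzymes and filled symbols for adjusted p below 0.05. No symbol is filled for Ezh2-deficient MEFs, 9 are filled for Snf5 Ezh2-deficient MEFs with only Dhcr7 above 0, and Idi1 and Fdft1 are filled for the lymphomas; the horizontal scales differ between panels.

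Genes that control or surround the pathway also changed in Snf5 Ezh2-deficient MEFs. Scap, the escort of SREBP, read 10.24, 10.24 and 10.41 in the mutant against 9.57, 9.64 and 9.56 in the controls, 1.63-fold higher (adjusted p = 6.49e-05). Ufd1, part of the complex that extracts ubiquitinated HMG-CoA reductase from the membrane, fell by 0.31 (adjusted p = 0.00669). These were 2 of 6 genes on the list of SREBP control. On the efflux list 1 of 8 rose and 3 fell: Abca1, the pump that loads cholesterol onto apolipoprotein A-I, was 2.41-fold higher (adjusted p = 0.000336), while Apoe, Abcg1 and Mylip fell by 0.62, 0.35 and 0.24. Apoe, Abcg1 and Mylip passed in 10, 7 and 10 of 14 alternative settings and were lost without wild-type array 1 or 2, among other arrays. Lipa, the lysosomal lipase that frees cholesterol from its esters, was 1.69-fold higher (adjusted p = 2.27e-05), and Stard3, a late endosomal cholesterol transporter, fell by 0.29 (adjusted p = 0.0102). Of 12 fatty acid genes, 4 fell and 2 rose. Fads1, a desaturase of polyunsaturated fatty acids, fell by 0.84, Aacs, the acetoacetyl-CoA synthetase, by 0.58 and Fasn by 0.53, while Scd1, the stearoyl-CoA desaturase, rose by 0.53 (adjusted p = 0.0412), a call lost without mutant array 2 or 3 or any wild-type array. Of the proliferation markers 1 of 19 fell, Mcm4 by 0.50, 0 rose, and the median was 0.01.

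The difference between both MEF effects was tested directly, with Snf5 Ezh2-deficient and Ezh2-deficient arrays set on 1 scale by their common controls. It leaves out the error of that alignment. Over all genes 29.9% passed, 16.3% higher and 13.6% lower in Snf5 Ezh2-deficient MEFs. Of the 7 genes, 1 passed. Dhcr7 averaged 8.68 ± 0.17 in Snf5 Ezh2-deficient MEFs and 7.88 ± 0.29 in Ezh2-deficient MEFs (SD, n = 3 each), a difference of 0.80 ± 0.14 (SE, adjusted p = 0.00194) that passed in all 15 alternative settings. All 3 Snf5 Ezh2-deficient arrays lay above all 3 Ezh2-deficient arrays on that scale.

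The remaining 6 genes did not pass, and their intervals say how large a difference remains possible. They ran from -0.31 to 0.31 for Fdps, -0.35 to 0.03 for Sqle, -0.45 to 0.17 for Lss, -0.24 to 0.46 for Hmgcs1, -0.13 to 0.50 for Idi1 and -0.16 to 0.14 for Srebf2. Without Ezh2-deficient array 3, Sqle and Lss passed as lower in Snf5 Ezh2-deficient MEFs, and without Ezh2-deficient array 2, Idi1 passed as higher. Sqle, Fdps and Lss passed against wild type in Snf5 Ezh2-deficient MEFs and not in Ezh2-deficient MEFs, and this test did not separate both effects. The SD of the Snf5 Ezh2-deficient arrays was 0.05 for Sqle, 0.08 for Fdps and 0.06 for Lss. The SD of the Ezh2-deficient arrays was 0.17 for Sqle, 0.33 for Fdps and 0.34 for Lss.

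Other enzymes moved in both directions in this test, 2 higher and 2 lower of 12. These counts were near the shares over all genes, 16.3% higher and 13.6% lower. Pmvk, the phosphomevalonate kinase, was 0.76 higher in Snf5 Ezh2-deficient MEFs (adjusted p = 0.00364) and Ebp, the sterol isomerase, 0.29 higher (adjusted p = 0.0431). Sc5d, which makes the sterol that Dhcr7 reduces, was at -0.84 (adjusted p = 0.0103) and Cyp51 at -0.46 (adjusted p = 0.0216). The calls for Pmvk and Sc5d held in all 15 alternative settings, that for Cyp51 in 11, lost without array 1 or 2 of either mutant, and that for Ebp in 7, lost without any of the 3 Snf5 Ezh2-deficient arrays, Ezh2-deficient array 1 or 3, or wild-type array 2. Sc5d and Dhcr7, consecutive steps of the pathway, thus differed in opposite directions. Scap was 0.57 higher (adjusted p = 0.000235), the 1 call among 6 genes of SREBP control. Of 7 genes of uptake and transport 1 was higher, Lipa by 0.87, and 1 lower, Stard3 at -0.28. Of 8 efflux genes 1 was higher, Abca1 by 0.73, and 3 were lower, Apoe at -0.56, Ch25h, a hydroxylase that makes an oxysterol, at -0.45 and Abcg1 at -0.40. Of 12 fatty acid genes 4 were higher and 3 lower, among them Scd1 at 0.86, Elovl5, a fatty acid elongase, at 0.53, Acss2 at 0.47 and Fads1 at -0.50. The calls for Scd1 and Elovl5 held in all 15 alternative settings, that for Fads1 in 11 and that for Acss2 in 6. Acss2 was lost with the mean of all its probe sets, among other settings. Apoe and Abcg1 each passed in 10. Proliferation markers were higher in 15 of 19, with a median of 0.58, among them Top2a by 0.79, Mcm5 by 0.77, Cdk1 by 0.75 and Kif20a by 0.75. Their part in the Dhcr7 difference was not tested.

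Across the 9 distinct MEF arrays most of the 7 genes varied together. Pearson r over the 21 pairs had a median of 0.75, with 0.97 for Fdps and Lss, 0.96 for Hmgcs1 and Idi1 and 0.94 for Sqle and Lss. Dhcr7 had lower values, with r of -0.13 with Sqle, 0.02 with Lss, 0.21 with Fdps, 0.34 with Srebf2, 0.48 with Hmgcs1 and 0.50 with Idi1. These values describe arrays that share groups, RNA and normalisation, and include the group differences above. The gene closest to the mean standardised level of the 7 was Sarnp (r = 0.98 over 9 arrays), followed by Brk1, Mtmr14, Toe1 and Mvd (r = 0.94). Of 9287 genes compared, the other enzymes ranked between 5 for Mvd and 4775 for Sc5d, with Fdft1 at 28, Nsdhl at 115 and Msmo1 at 179.

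Snf5-deficient lymphoma cells were higher than wild-type CD8+ T cells in Idi1, and no other of the 7 genes passed. Fdft1, another enzyme of the pathway, was 3.53-fold higher through its main probe set. With the mean of all its probe sets the Fdft1 difference was smaller, at 0.81 on the log2 scale. Of all genes 16.8% passed, 9.13% higher and 7.71% lower, and the median difference of the 7 genes was 0.07, against -0.07 over all genes. Fitted differences of Hmgcs1, Sqle and Fdps were below 0, and those of Idi1 and Dhcr7 above it. Lss and Srebf2 had no stable sign: without wild-type arrays 1 and 6 they were at -0.04 and -0.17, against 0.07 and 0.09 with all arrays.

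Idi1 read 11.78, 10.91, 11.87, 11.87 and 12.03 in the 5 lymphomas, against a lowest of 10.68, a median of 10.94 and a highest of 10.96 in wild-type CD8+ cells. Lymphoma array 2 lay inside the wild-type range and the other 4 lymphomas lay above all 6 wild-type arrays. The difference was 0.83 ± 0.20 (SE, adjusted p = 0.016), 1.78-fold higher, and an exact two-sided permutation test gave p = 0.0216, where 0.00216 is the smallest that 5 against 6 arrays allow. Without wild-type arrays 1 and 6 it was 0.81 (adjusted p = 0.0305). The second Idi1 probe set was 0.60 higher and did not pass (adjusted p = 0.221). With the mean of both probe sets the call was lost (adjusted p = 0.0502).

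Hmgcs1 read 12.71, 12.89, 12.69, 12.68 and 12.65 in the lymphomas, against a lowest of 12.72, a median of 13.15 and a highest of 13.48 in wild-type CD8+ cells. Lymphoma array 2 and wild-type array 1 were the arrays that overlapped. The difference of -0.39 ± 0.14 did not pass in the fit over all probe sets (adjusted p = 0.0958), while the exact two-sided permutation test of this gene alone, not adjusted, gave p = 0.00866. Without wild-type arrays 1 and 6 it was -0.53 (adjusted p = 0.014), and without array 1 or with array weights it also passed as lower. Its other 3 probe sets differed by -0.26, -0.27 and 0.10 and did not pass. Hmgcs1 and Idi1, which lie close together in the mevalonate arm, had an r of -0.64 over the 11 T cell arrays.

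**Figure D3:**
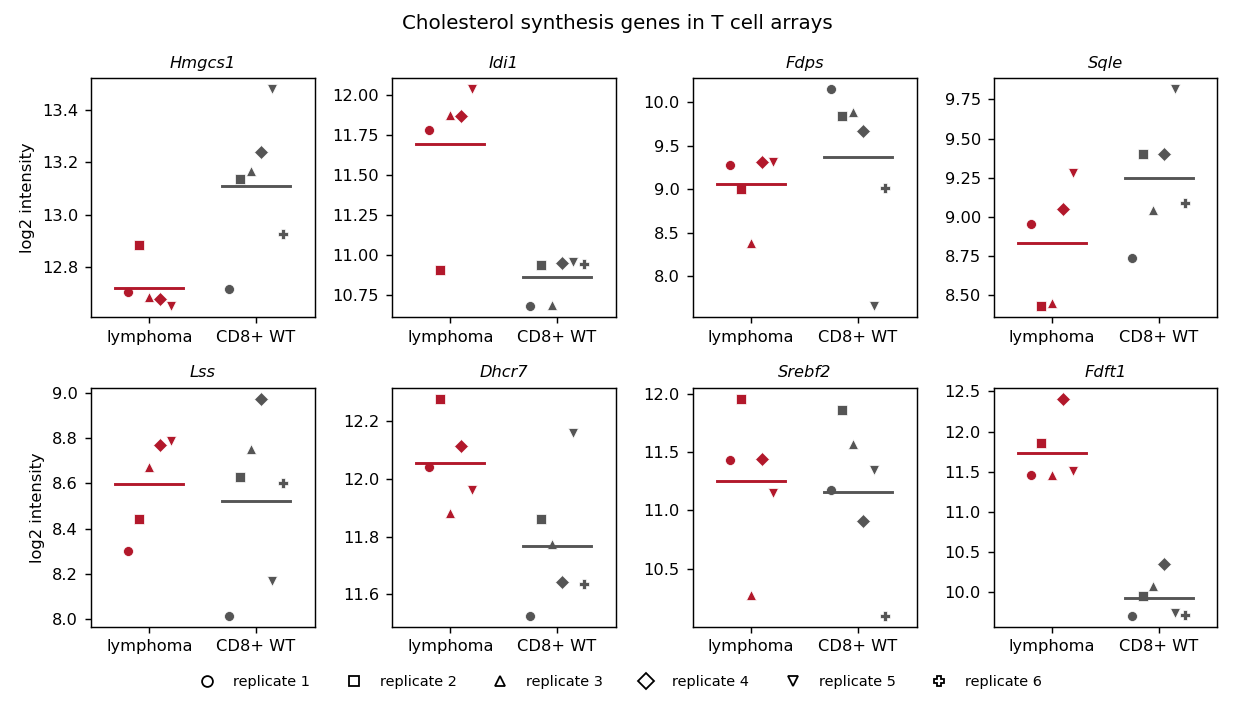
Log2 intensity of the 7 measured genes and Fdft1 on each T cell array, with 5 Snf5-deficient lymphomas on the left and 6 wild-type CD8+ arrays on the right of each panel, symbols for the replicate and bars for group means; the vertical scales differ and do not start at 0. Idi1 is higher in 4 of 5 lymphomas, Fdft1 in all 5, and the groups overlap in the other genes.

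The remaining genes of the set overlapped widely. Sqle read 8.96, 8.43, 8.45, 9.05 and 9.28 in the lymphomas, against a median of 9.24 in wild-type cells (8.74 to 9.81), with a difference of -0.41 ± 0.22 (adjusted p = 0.24). Fdps read 9.28, 9.01, 8.38, 9.31 and 9.31 in the lymphomas, against a median of 9.76 in wild-type cells (7.66 to 10.15), with a difference of -0.31 ± 0.41 (adjusted p = 0.636). Wild-type array 5 was the low value for Fdps, the lowest of all 11 arrays, and without it the difference was -0.66 ± 0.25 (adjusted p = 0.112). Without lymphoma array 3, the lowest lymphoma, it was -0.14 (adjusted p = 0.857). Lss averaged 8.60 ± 0.21 in lymphomas and 8.52 ± 0.36 in wild-type cells (SD, n = 5 and 6), and the interval of the difference was -0.35 to 0.49. Dhcr7 averaged 12.05 ± 0.15 in lymphomas and 11.77 ± 0.23 in wild-type cells (SD, n = 5 and 6), a difference of 0.29 (adjusted p = 0.195). Its exact two-sided permutation p was 0.0476, and those of Sqle, Fdps, Lss and Srebf2 lay between 0.104 and 0.792. Srebf2 spread over 10.27 to 11.95 in the lymphomas and 10.09 to 11.86 in wild-type cells, with an interval of -0.67 to 0.85. The interval for Fdps was -1.22 to 0.59.

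Fdft1 was the 1 call among the other 12 enzymes. It read 11.46, 11.86, 11.46, 12.41 and 11.50 in the lymphomas, against a lowest of 9.70, a median of 9.84 and a highest of 10.35 in wild-type CD8+ cells. The groups did not overlap, and the difference was 1.82 ± 0.20 (SE, adjusted p = 0.000344). It passed in all 19 alternative settings and was smallest, at 0.81 (adjusted p = 0.0226), with the mean of all its probe sets. Without wild-type arrays 1 and 6 it was 1.71 (adjusted p = 0.000847). Mvd lay at -0.73 (adjusted p = 0.0545), and the median of the 12 enzymes was 0.37.

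Around the pathway, Insig2, which retains the SCAP complex, was lower in the lymphomas (-0.77, adjusted p = 0.0322), the only call among 6 genes of SREBP control, and it passed in 10 of 19 alternative settings. It was lost without lymphoma array 1, 3 or 5 or any of wild-type arrays 2 to 5, and with the mean of all its probe sets it was -0.23 (adjusted p = 0.405). Npc2, which hands cholesterol out of the lysosome, fell by 0.94 (adjusted p = 0.000886) and Stard3 by 0.64 (adjusted p = 0.0488), 2 of 7 genes of uptake and transport. The Npc2 call held in all 19 alternative settings, that for Stard3 in 9, lost without lymphoma array 1, 2, 3 or 5 or any of wild-type arrays 2 to 4. Mylip read 5.76, 5.00, 5.99, 5.82 and 5.87 in the lymphomas, against 9.34, 10.36, 10.90, 10.45, 10.10 and 8.86 in wild-type cells, with the value of lymphoma array 2 among the lowest 25% on its array. Its difference of -4.31 (adjusted p = 4.59e-05) was the only call among 8 efflux genes. Of 12 fatty acid genes 2 rose and 1 fell: Scd2, a stearoyl-CoA desaturase, by 1.74 (adjusted p = 0.00152), Fasn by 1.07 (adjusted p = 0.00603), and Acss2, the cytosolic acetyl-CoA synthetase, at -2.27 (adjusted p = 0.00671). Fasn rose here and fell in both MEF comparisons, though its call in Ezh2-deficient MEFs passed in only 4 of 14 alternative settings.

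Markers of proliferation and of other cell types also varied across the T cell arrays. Proliferation markers averaged 11.81 to 12.09 in the lymphomas and 9.32 to 11.92 in wild-type cells, all 19 were above 0, and 4 passed as higher, Tk1, Tyms, Mcm5 and Mcm6. Each of the 4 was lost without lymphoma array 1, 3, 4 or 5 or wild-type array 3 or 5, and Tk1 and Tyms also without lymphoma array 2. The 11 myeloid markers averaged 8.25 to 10.49 in the lymphomas and 6.64 to 12.35 in wild-type cells, with 1 to 2 of 11 and 0 to 4 of 11 among the lowest 25% of values on an array, and 0 passed. Apart from wild-type arrays 1 and 6, the wild-type myeloid means were 6.64 to 8.30. Lymphoma array 2, at 8.25, lay in that range, and lymphoma arrays 1, 3, 4 and 5 lay above it, at 9.59 to 10.49. The 7 B cell markers averaged 5.88 to 6.31 in the lymphomas and 6.79 to 10.34 in wild-type cells, and 1 passed as lower. T cell markers averaged 10.84 to 11.83 in the lymphomas and 10.10 to 12.24 in wild-type cells, with 1 of 10 lower. Of 5 erythroid and 9 fibroblast markers, 1 each passed as lower. The erythroid markers averaged 4.93 to 7.06 in the lymphomas and 5.15 to 8.75 in wild-type cells. Their mean was highest on wild-type array 5, the low array for Fdps. Lymphoma array 2, at the wild-type level for Idi1, had the lowest myeloid mean of the lymphomas. Wild-type arrays 1 and 6, with the highest myeloid means, read 10.68 and 10.95 for Idi1, and the other wild-type arrays 10.69 to 10.96. The 2 wild-type arrays with the lowest proliferation means, arrays 3 and 4, read 10.69 and 10.95 for Idi1. Fdft1 read 11.86 on lymphoma array 2. It read 9.70 and 9.71 on wild-type arrays 1 and 6, and 10.07 and 10.35 on wild-type arrays 3 and 4. The part of these markers in the Idi1 and Fdft1 results was not tested.

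**Figure D4:**
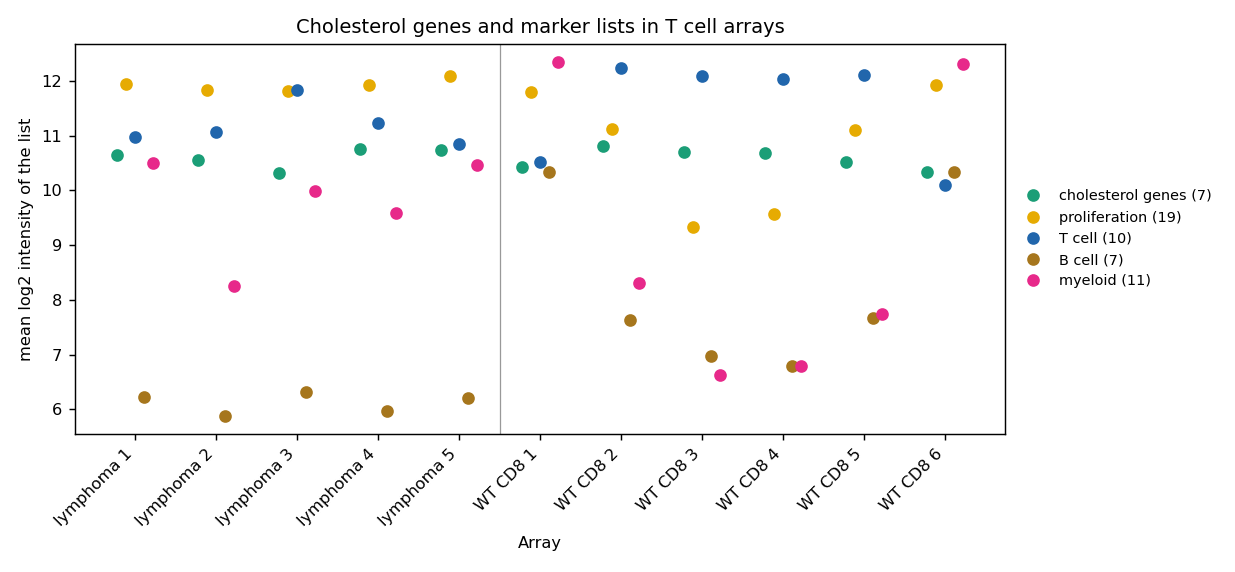
Mean log2 intensity of the 7 cholesterol genes and of 4 marker lists (number of genes in brackets) on each T cell array, with the 5 Snf5-deficient lymphomas left of the line and the 6 wild-type CD8+ arrays right of it. The cholesterol mean stays between 10.32 and 10.81 on all 11 arrays, while myeloid and B cell means are high on wild-type arrays 1 and 6 and the proliferation mean is low on wild-type arrays 3 and 4.

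In T cells the 7 genes did not vary as a set. Over the 11 arrays the 21 pairwise r values had a median of -0.01, between -0.64 for Hmgcs1 with Idi1 and 0.68 for Hmgcs1 with Sqle. The genes nearest to their mean standardised level were Hcn3 (r = 0.90 over 11 arrays), Frmd6, Dhx30, Adprhl2 and Utp25, of 9287 compared. With a median pairwise r of -0.01, that mean is no shared profile of the 7 genes. Closeness to it therefore does not show likeness to the single genes. Of the other enzymes Ggps1 ranked highest, at 21, and Fdft1 was at 2820. The mean of the 7 genes itself was 10.32 to 10.75 in the lymphomas and 10.33 to 10.81 in wild-type CD8+ cells.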

How the data were processed

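Per the labels' protocols, the authors hybridised total RNA to Mouse 430A 2.0 arrays and processed the scans with RMA, a method that equalises the distributions of all arrays normalised together. No version of that software is stated. What they deposited is RMA intensity, linear in scale, and log2 was taken here. Arrays give no counts, and the number of arrays (3, 5 or 6 a group) limits the precision. Titles speak of biological replicates without naming separate cultures or animals, so a p-value reflects the spread between these samples alone, which may be technical.

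Leaving out 64 control probe sets, 22626 were fitted with limma 3.58.1 in R 4.3.3 (lmFit, eBayes), with Benjamini-Hochberg adjustment over all of them and a threshold of 0.05. A probe set naming several genes was not used for a gene. After a per-probe-set offset, control arrays of the same number differed between both MEF sets with an SD of 0.0219 to 0.0241, against 0.137 to 0.152 for different numbers (5639 bright probe sets). The second set was therefore moved to the scale of the first by that offset and each control was averaged over both, leaving 9 arrays with 6 residual degrees of freedom. The T cell arrays were fitted alone, with 9. Differences are log2 of the mutant or lymphoma over wild type, with SE and 95% confidence intervals from the fit. The exact permutation test ran on group means of the T cell arrays with scipy 1.17.1; 3 against 3 arrays cannot pass it. The fit was tested on simulated data.

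The genes and the 12 lists were chosen with earlier results of these data known. Named genes were the 8 cholesterol genes, up to 4 called genes with the largest difference from each other list and from the proliferation list per comparison (or the smallest p where none was called), Ezh2, Smarcb1 and the 5 genes most like the mean of the set. Replicate numbers are not stated to pair the samples, and the main fit did not pair them. The correlation of deviations at the same number was 0.01 to 0.22 for Ezh2-deficient, -0.04 to 0.13 for Snf5 Ezh2-deficient and 0.09 to 0.39 for lymphoma arrays. Different numbers were not compared, so these values cannot decide whether samples were paired. Ggps1, Tm7sf2, Eif2s3y and Xist lie outside the rule for named genes and were chosen after they were seen. Motifs were searched in 300-base RefSeq windows (GRCm38.p6). Alternatives covered the replicate block, each array left out, probe set averaging, a filter on dim probe sets, quantile normalisation, median centring, the variance model, the arrays in the fit and array weights.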

Additional observations from a re-analysis of the deposited data

Results flagged for a closer look

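Of 38 groups of values examined for the named genes on the T cell arrays, 4 had an array far from the others by Dixon's test, which chance gives for about 1 group in 20. Lymphoma array 2 was apart in 3 of them: Hmgcs1 at 12.89 (nearest 12.71), Idi1 at 10.91 (nearest 11.78) and Mylip at 5.00 (nearest 5.76). Lymphoma array 4 was apart for Tk1, at 12.61 (nearest 12.20). Without lymphoma array 2 the Idi1 difference was 1.03 (adjusted p = 0.00107).

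The effect in Snf5 Ezh2-deficient MEFs differed from that in Ezh2-deficient MEFs by the test of the difference in 5 cholesterol genes, by 0.80 for Dhcr7, 0.76 for Pmvk, 0.29 for Ebp, -0.46 for Cyp51 and -0.84 for Sc5d. Both effects were measured against the same controls, and 29.9% of all genes passed this test.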

How the results depend on the processing

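No named result changed direction past the threshold under any alternative. Of the named genes' values, 1137 fell on the same side of the threshold as reported, 173 lost the call and 15 gained it. For Ezh2-deficient MEFs, the 432 genes called became 213 with a replicate block, 258 with the 6 arrays of the own set and 851 with all 12 arrays as separate samples. There, 1 cholesterol gene and 1 other enzyme passed as lower with 12 arrays, and 1 other enzyme with probe sets averaged. Leaving out arrays gave 87 to 443 genes, 0 to 4 cholesterol genes lower (4 without Ezh2-deficient array 2) and 0 to 2 other enzymes lower.

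For Snf5 Ezh2-deficient MEFs, 0 cholesterol genes were higher with a replicate block or median centring, 1 was lower with quantile normalisation, and 1 other enzyme was higher with the own set. The replicate block left 2 cholesterol genes and 5 other enzymes lower. Leaving out arrays gave 0 to 1 higher, 1 to 2 lower, and 3 to 5 other enzymes lower. For the difference between both effects, 1 other enzyme was higher with quantile normalisation or median centring. Leaving out arrays gave 1 to 2 cholesterol genes higher, 0 to 2 lower, 1 to 5 other enzymes higher and 1 to 4 lower.

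For the lymphomas, 0 cholesterol genes were higher with probe sets averaged. With array weights, or without wild-type arrays 1 and 6, a setting chosen after seeing the data, 1 cholesterol gene and 1 other enzyme passed as lower, with 3227 and 3273 genes called in place of 2088. Without the dimmest 25% of probe sets 1 other enzyme was lower, and leaving out arrays gave 0 to 1 for either group (1 without wild-type array 1). The replicate block changed no other count by over 1.5 times. The cause of these changes was not tested. Depth has no counterpart here: few arrays per group and signal near the floor for genes such as Mylip limit the precision.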
